A study of Microcebus murinus with 18 samples.

Results

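The mitochondrial ribosomal proteins are the nuclear-encoded proteins of the ribosome that works inside mitochondria, and their transcripts were followed here in the temporal cortex of the grey mouse lemur, Microcebus murinus. The members were all probe sets annotated to a single gene symbol that begins with MRPL or MRPS and a number. This gave 142 of the 54613 probe sets without controls, for 77 gene symbols. Of these, 88 probe sets stood for 50 genes of the large subunit, 52 for 25 genes of the small subunit, and 1 each for the antisense gene MRPL20-AS1 and the pseudogene MRPL45P2. MRPS30 and MRPS18A were counted with the large subunit, where their human proteins are found in spite of their names. A further 4 probe sets that carry an MRP symbol beside another symbol were left out.

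Total RNA of 18 animals was hybridized to human Affymetrix arrays, 1 array per animal, because no arrays exist for this species. The groups were 2 AD-like animals (F1 and F2, both female), 10 old animals without plaques, of which 7 were female, and 6 young adults, of which 4 were female. AD-like animals carry the age category old in the labels and were set apart in the study because their brains had amyloid plaques and a thinned cortex. No treatment, strain or transgene is given for any group, and age is given in the labels as a category. As the tissue is bulk cortex, fewer cells of a type and less RNA per cell cannot be told apart.

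Mitochondrial ribosomes translate the few proteins that mitochondrial DNA encodes, which are membrane-embedded core subunits of the oxidative phosphorylation complexes. The small subunit holds and decodes the messenger RNA, and the large subunit joins the amino acids and passes the new chain towards the inner membrane. Compared with bacterial ribosomes, those of mammals have less ribosomal RNA and more protein. Some of their proteins have a bacterial counterpart, and others, often at the surface, occur only in mitochondria. Neurons depend heavily on oxidative phosphorylation, and inherited defects of several of these proteins affect the brain, heart or muscle.

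Signals were linear values scaled by array, and a probe set was kept for testing when its third-highest signal over the 18 arrays was at least 150. By this rule 56 of the 142 members (39.4%) were kept, against 26.7% of all probe sets, which were 14567 in number. The kept members stood for 46 genes. They comprised 41 probe sets of 33 large-subunit genes (46.6% of the large-subunit probe sets) and 15 probe sets of 13 small-subunit genes (28.8%). As a human probe binds a lemur transcript only as far as the sequences match, a low signal does not tell a scarce transcript from a poor match, and animals were compared within a probe set. Just inside and just outside the limit, MRP probe sets had third-highest signals of 153.3 and 149.8. In all 18 animals, 14 of the members reached 150, whereas 15 of the kept members did so in only 3 to 5 animals. A probe set seen in 3 animals could pass through old or young adult animals alone but not through the 2 AD-like animals alone. Genes without a kept probe set numbered 31, among them MRPL3, MRPL10, MRPL19, MRPS2 and MRPS35.

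The kept probe sets with the highest mean signals for the large subunit matched MRPL24, MRPL33 and MRPL14, all with bacterial counterparts, which ranks the brightness of human probes and not the transcripts themselves. MRPL24 gave signals of 1388 and 1048 in AD-like animals, 1174 to 1647 (median 1443) in old animals and 896 to 1702 (median 1589) in young adults. These groups overlapped, and the log2 difference was -0.22 ± 0.28 (SE) between AD-like and old animals and -0.06 ± 0.19 (SE) between old and young adult animals. MRPL14 spanned 428 to 1305 in AD-like animals, 324 to 903 in old animals and 336 to 802 in young adults, so that AD-like F1 had the highest signal of the 18 animals while F2 lay inside the other ranges. For the small subunit they matched MRPS17, MRPS7 and MRPS15, again with bacterial counterparts. MRPS7, which binds the RNA of the subunit's head, gave 375 and 224 in AD-like animals, 205 to 484 (median 355) in old animals and 250 to 446 (median 336) in young adults. Old animals spanned the range of the young adults and beyond, AD-like F2 lay below every young adult but inside the old range, and the log2 differences were -0.20 ± 0.33 (SE) between AD-like and old animals and -0.01 ± 0.22 (SE) between old and young adult animals.

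The mean level of the kept members differed little between groups. Mean log2(signal + 16) over the 56 probe sets was 7.68 ± 0.14 for AD-like animals (SD, n = 2), 7.78 ± 0.10 for old animals (SD, n = 10) and 7.69 ± 0.07 for young adults (SD, n = 6). The pooled spread between animals of a group was 0.095. For the large subunit the means were 7.54 and 7.80 in AD-like F1 and F2, 7.64 to 8.02 in old animals and 7.64 to 7.92 in young adults, so that F1 lay below every other animal. For the small subunit they were 7.70 and 7.72 in the AD-like animals, 7.47 to 7.89 in old animals and 7.15 to 7.77 in young adults. Here both AD-like animals fell among the old ones, and the lowest animal was young adult M1.

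**Figure D1:**
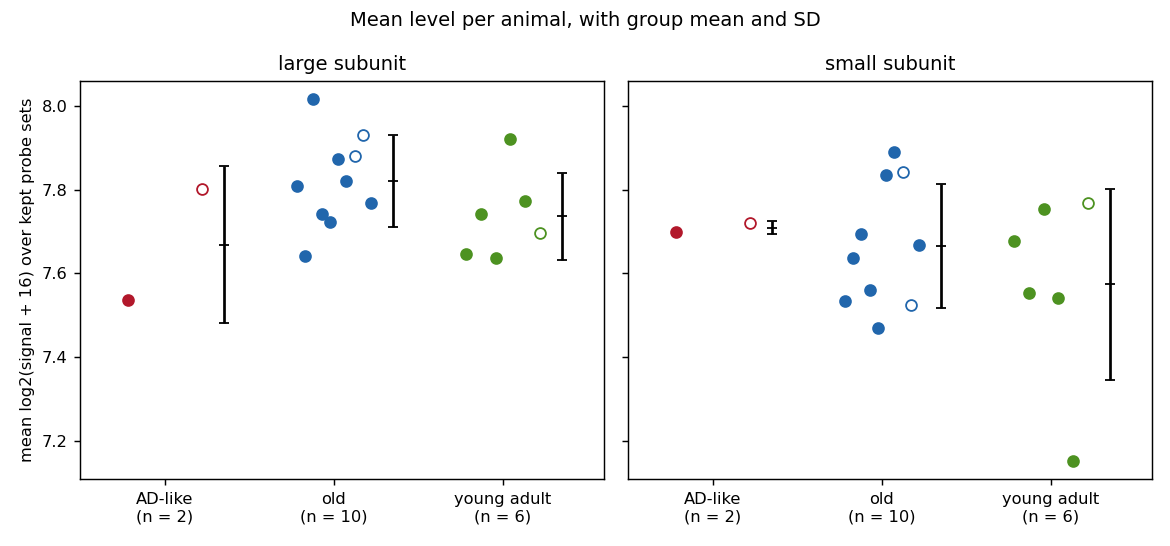
Mean log2(signal + 16) over the 41 kept large-subunit probe sets (left) and the 15 kept small-subunit probe sets (right) in each animal, with AD-like, old and young adult animals in that order. Each circle is 1 animal, open circles mark the 4 arrays that lacked poly-A control RNA, and the bar gives the group mean ± SD; AD-like F1 is the lowest animal for the large subunit (7.54) and young adult M1 for the small subunit (7.15).

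Arrays also differed in ways the groups do not explain. In AD-like F2, old M1, old M2 and young adult M2 the spiked poly-A control RNAs were near background, with a median control signal of 9.98 to 22.3, against 101 to 655 on the other 14 arrays. For GAPDH, the 3' over 5' probe set ratio (log2), a sign of RNA integrity, was 0.32 to 0.61 in AD-like, -0.10 to 1.56 in old and 0.14 to 0.68 in young adult animals. Of the neuron markers, 18 of 23 probe sets were kept, and their mean log2 level was 10.3 to 10.8 in AD-like, 10.3 to 10.9 in old and 9.86 to 11.0 in young adult animals. Kept probe sets numbered 11 of 22 for astrocyte, 11 of 25 for oligodendrocyte, 3 of 17 for endothelial and 1 of 12 for microglial markers, so that the last type was hardly measured.

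The comparison of old with young adult animals asks which transcripts differ with age in animals without plaques. Of the 56 kept members, 35 had a positive log2 difference, and the median difference was 0.08 (0.08 for the large and 0.07 for the small subunit), beside 0.03 over all kept probe sets. With limma on log2(signal + 16), 3 members had a higher level in old animals with p under 0.05 before adjustment (5.36% of the members, against 3.49% of all kept probe sets) and 2 were lower (3.57%, against 2.42%). After Benjamini-Hochberg adjustment over all kept probe sets, 0 members passed a threshold of 0.05, as did 0% of all kept probe sets. The linear-signal test of the methods likewise left 0 members after adjustment, against 0% of all. The limit of 150 itself favoured a difference for 4 of these 5 members, since the group with the lower signals never reached it. MRPL39 reached 150 in 5 old animals and in no other, MRPL45 in 3 old and 1 AD-like animal, and MRPL54 and the probe set of MRPL30 in 3 young adults each and in no other. Their differences and the count of 5 are therefore given as a description. MRPS31 reached 150 in 2 AD-like, 9 old and 2 young adult animals. No member had old and young adult animals apart: 0.0206% of all kept probe sets had every old animal above every young adult and 0.0137% had every old animal below. The count of 5 members fell to 2 without old F7 or young adult M1 and to 3 without old F3 or young adult F3, and was 3, all higher in old animals, on the 14 arrays with poly-A control RNA. The share of all kept probe sets called was not counted in these settings.

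On the small subunit, MRPS31 had the smallest p. MRPS31 is a mitochondria-specific protein of the small subunit, first described as an autoantigen in type I diabetes. Signals were 133 to 293 (median 197) in old animals and 15.9 to 206 (median 119) in young adults. All 10 old animals lay above the young adult median, although young adults M2 and F3 fell within the old range. The log2 difference was 0.97 ± 0.32 (SE; limma adjusted p = 0.836), and 0.60 without young adult M1, whose signal was the lowest of the 18. AD-like animals gave 159 and 194, inside the old range. MRPS17, MRPS6 and MRPS14, each with a bacterial counterpart, followed with log2 differences of 0.34 ± 0.21, 0.30 ± 0.23 and 0.26 ± 0.20 (SE). MRPS25, found only in mitochondria, had -0.38 ± 0.38 (SE); leaving out young adult M1 gave -0.12, and leaving out young adult F4 gave -0.72.

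On the large subunit the smallest p belonged to MRPL39, a mitochondria-specific protein that was kept through old animals alone. It gave 60.0 to 219 (median 157) in old animals and 36.6 to 141 (median 76.8) in young adults, and 9 of 10 old animals lay above the young adult median. The log2 difference was 0.77 ± 0.29 (SE; limma adjusted p = 0.836), and the AD-like animals, at 41.6 and 123, fell on both sides of the young adult median. MRPL45, the large-subunit protein that in the human ribosome anchors the exit of the protein tunnel at the inner membrane, gave 58.9 to 185 (median 107) in old animals and 20.6 to 109 (median 79.3) in young adults. Here the ranges overlapped, young adult F4 was the lowest animal, and the difference of 0.60 ± 0.29 (SE) became 0.37 without it. MRPL42, another mitochondria-specific protein, had 184 to 433 (median 256) in old animals and 122 to 292 (median 171) in young adults, with all 10 old animals above the young adult median and a difference of 0.52 ± 0.26 (SE). A second kept probe set of MRPL42 differed by 0.05 ± 0.43 (SE).

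Lower signals in old animals were found for MRPL54 and for 1 probe set of MRPL30. MRPL54, a mitochondria-specific large-subunit protein kept through young adults alone, gave 22.9 to 145 (median 80.0) in old animals. In young adults it gave 344, 343, 224, 119, 101 and 25.1. Thus 3 young adults lay above every old animal, whereas young adult F3 was near the lowest of them, and the log2 difference was -0.93 ± 0.43 (SE; limma adjusted p = 0.836). MRPL30, with a bacterial counterpart, had a difference of -0.81 ± 0.36 (SE) on a probe set whose name marks it as open to cross-hybridization and that was likewise kept through young adults alone, with 21.7 to 145 in old animals and 47.4 to 232 in young adults. Its other kept probe set, at 194 to 426 in old animals and 197 to 385 in young adults, had -0.03 ± 0.22 (SE). Of the 9 genes with more than 1 kept probe set, all probe sets had the same sign in 2 genes in this comparison, in 5 between AD-like and old animals and in 7 between AD-like and young adult animals. In none of those with mixed signs did a probe set reach p under 0.05 before adjustment.

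**Figure D2:**
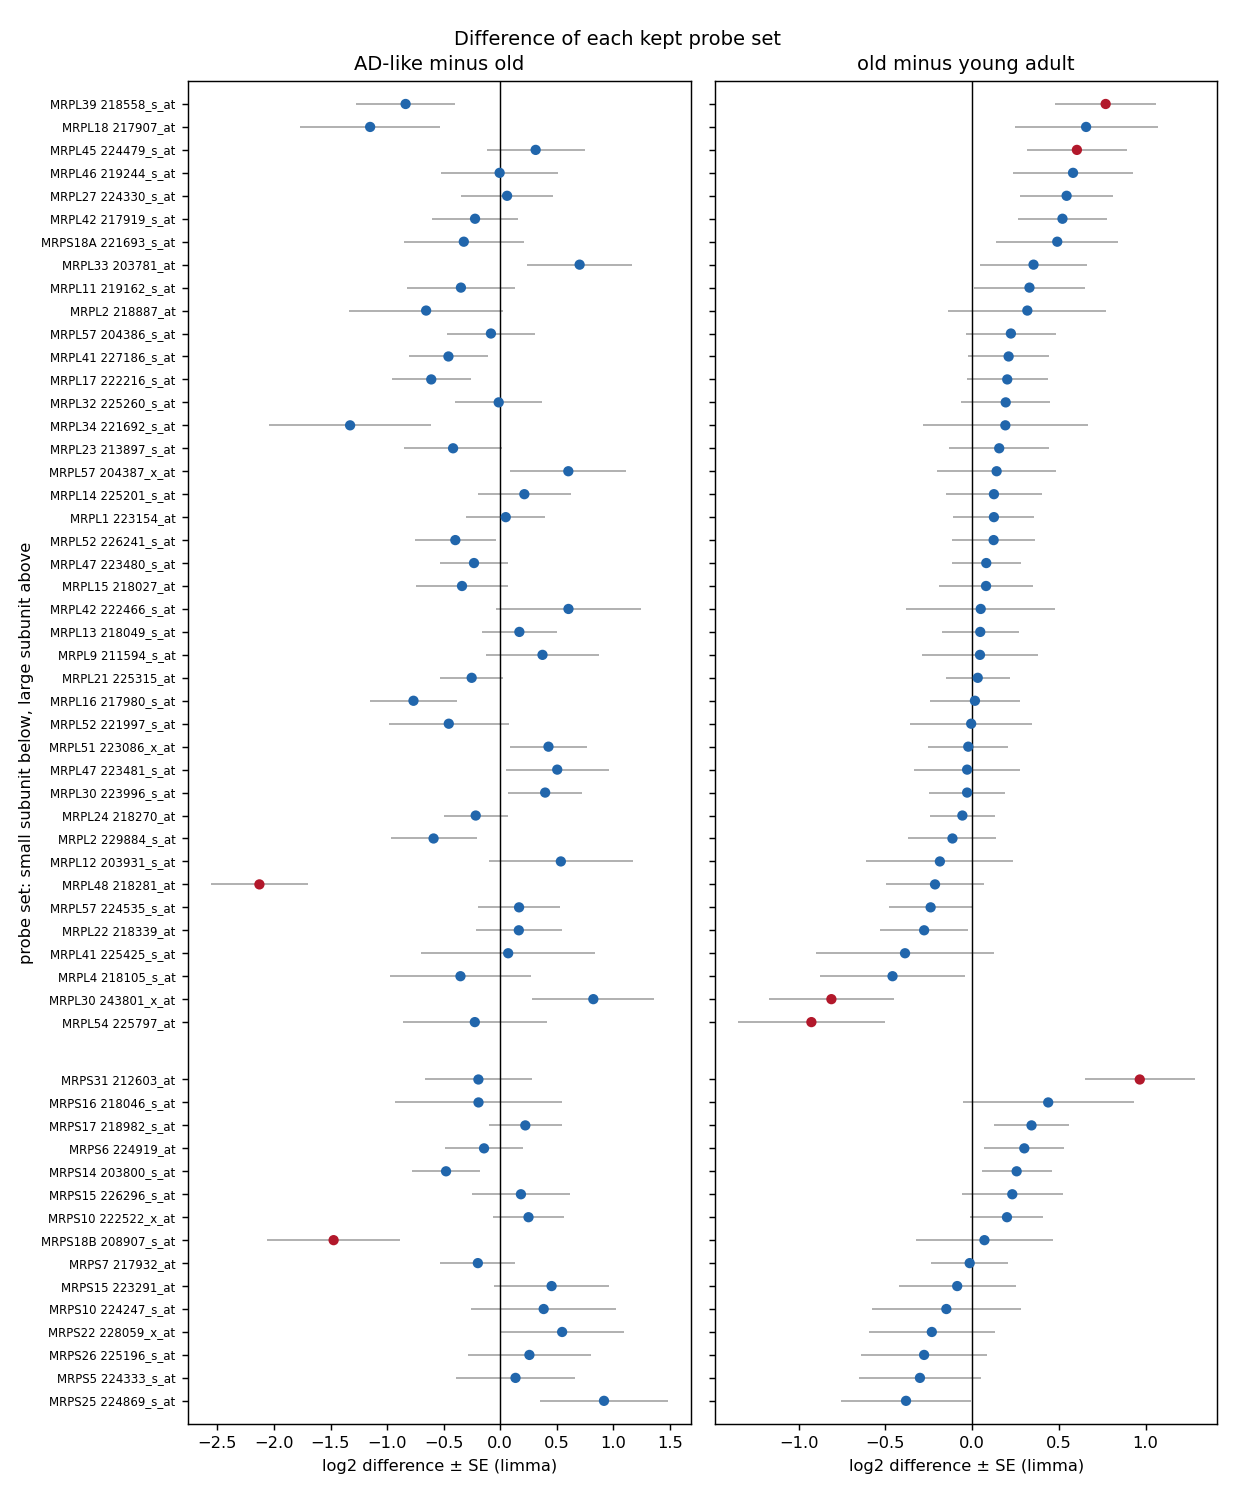
Log2 difference with its SE (limma) of each of the 56 kept probe sets between AD-like and old animals (left) and between old and young adult animals (right), with large-subunit members above and small-subunit members below, ordered by the right-hand value. Red points had p under 0.05 before adjustment, 2 on the left (MRPL48 and MRPS18B) and 5 on the right, and 0 passed after adjustment.

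Comparing AD-like with old animals asks which transcripts differ between aged animals with and without plaques and atrophy. In the study the AD-like animals had a higher mean age than the old group. They are also both female, whereas the old group includes males, so age and sex go with the AD-like label. Among the 56 members, 26 had a positive difference and 30 a negative one, with a median of -0.05 beside -0.02 over all kept probe sets. The medians were -0.22 for the large subunit and 0.18 for the small subunit. In limma 0 members were higher in AD-like animals with p under 0.05 before adjustment, against 1.22% of all kept probe sets, and 2 members were lower (3.57%, against 3.62%). After adjustment 0 members passed, against 0.00686% of all kept probe sets, and the linear-signal test of the methods also left 0 members, against 0% of all. Before adjustment that test had 1 member higher (1.79%, against 2.94% of all kept probe sets) and 1 lower (1.79%, against 2.14%), so that over all kept probe sets lower calls outnumbered higher ones in limma and higher ones outnumbered lower ones on linear signals. In limma without the limit, 3.93% of all probe sets were higher in AD-like animals and 1.81% lower. The limma count of 2 became 5 without old F4 and 4 without old M3, all lower in AD-like animals. The share of all kept probe sets called was not counted in these settings, so the change is not read as a result about the members. The median turned to 0.13 without AD-like F1 and was -0.19 with 1 probe set per gene. F1 lay below every old animal for 8 members and above every old animal for 2, F2 below for 7 and above for 6. The same counts were not made over all kept probe sets, so these are not read as a trait of the members.

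MRPL48 stood lowest in both AD-like animals. It encodes a mitochondria-specific protein of the large subunit, located in its central protuberance. Signals were 4.68 and 27.7 in AD-like F1 and F2, 33.1 to 220 (median 112) in old animals and 100.2 to 176 (median 134) in young adults. Both AD-like animals were below all 16 others, and the lowest old animal, M1, was the nearest to them. Among all kept probe sets, 1.63% had both AD-like animals below every old animal and 2.97% had them below every young adult. The log2 difference was -2.13 ± 0.43 (SE; limma adjusted p = 0.189) between AD-like and old animals and -2.34 ± 0.45 (SE; limma adjusted p = 0.322) between AD-like and young adult animals. The difference from old animals was -3.17 with an offset of 1 and -1.36 with an offset of 50 in place of 16, -1.59 without AD-like F1 and -2.67 without F2. Its limma adjusted p was 0.0207 without old M1 and 0.0231 in females only. It was 0.0305 on the arrays with poly-A control RNA, where F1 is the only AD-like animal and is assumed to vary like the other groups. The probe set reached the limit of 150 in 3 old and 2 young adult animals and in no AD-like animal. As the limit favoured a lower value in AD-like animals, these adjusted p values are no separate support for the difference. Between old and young adult animals the difference was -0.21 ± 0.29 (SE).

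MRPS18B, 1 of the mammalian relatives of bacterial ribosomal protein S18 and part of the small subunit, came next. Signals were 112 and 36.8 in AD-like F1 and F2, 52.1 to 389 (median 280) in old animals and 113 to 350 (median 207) in young adults. Thus old F4 and M1, at 62.0 and 52.1, lay between the AD-like animals, while no young adult was as low as either of them. The log2 difference was -1.47 ± 0.59 (SE; limma adjusted p = 0.954) against old animals and -1.40 ± 0.62 (SE) against young adults. Without AD-like F2, the difference from old animals was -0.84 and that from young adults -0.76. A second MRPS18B probe set, below the limit, went the other way. It gave 86.3 in AD-like F1 and 7.98 in F2. When fitted without the limit, it differed by 0.95 from old animals (limma adjusted p = 0.852) and by 1.02 from young adults.

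**Figure D3:**
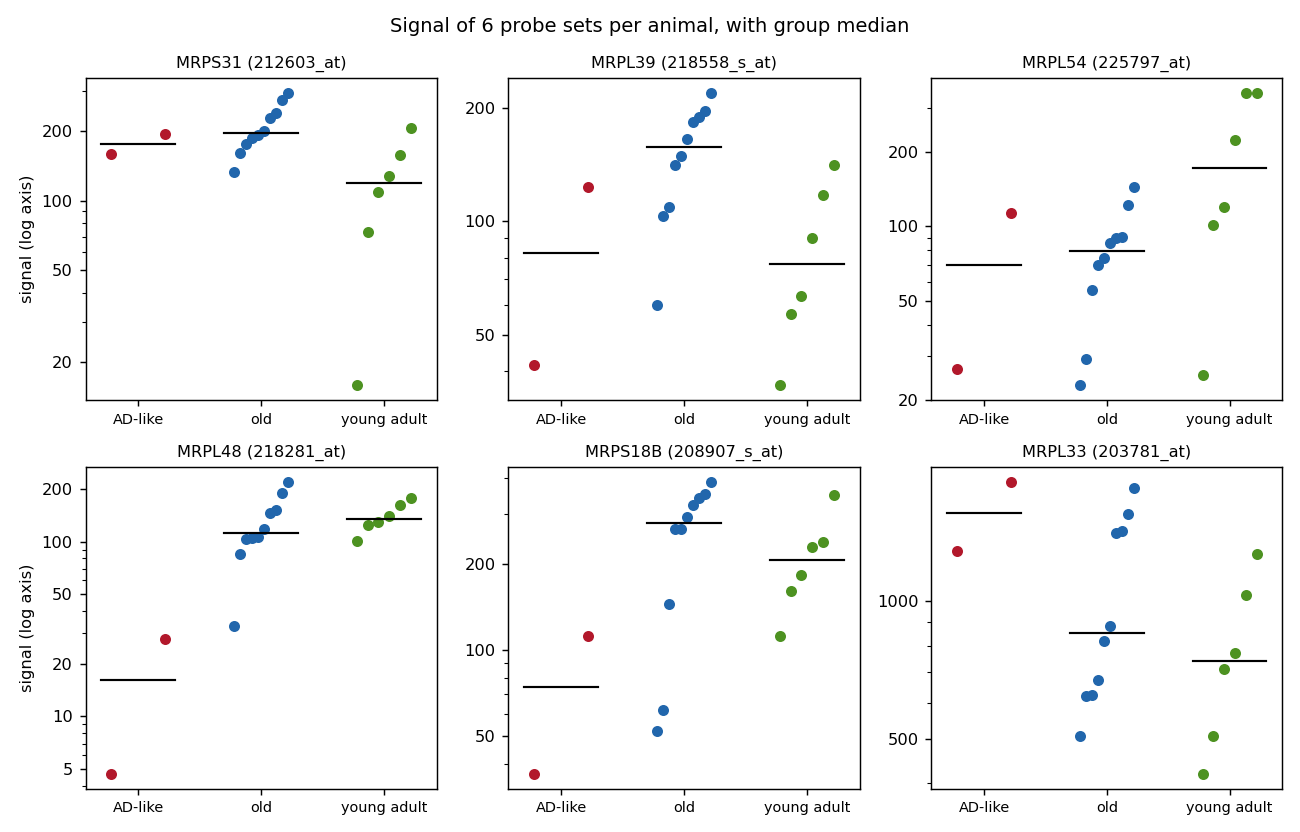
Signal on a log axis of 6 probe sets in each animal of the AD-like, old and young adult groups, sorted by value within a group, with the group median as a line. MRPL48 has both AD-like animals (4.68 and 27.7) below all others, MRPS31 has all 10 old animals above the young adult median of 119, and MRPL54 has 3 young adults above every old animal.

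Other large-subunit members with small p values in this comparison had signals that overlapped. MRPL16, whose bacterial counterpart helps to form the tRNA binding sites, gave 188 and 72.7 in AD-like F1 and F2, against 100.1 to 357 (median 210) in old animals, a log2 difference of -0.77 ± 0.39 (SE) that was -0.17 without F2. MRPL39 differed by -0.84 ± 0.44 (SE), and by -0.20 without F1. It was kept through old animals alone, so the limit favoured a lower value in AD-like animals. For MRPL18, the counterpart of the bacterial protein that binds 5S ribosomal RNA, F1 gave 43.8 and F2 gave 325, against 82.9 to 675 (median 361) in old animals. Only F1 was outside the old range, so that the difference of -1.15 ± 0.62 (SE) turned to 0.11 without it. MRPL34, with a bacterial counterpart, had 33.6 and 9.65 in AD-like animals, against 4.73 to 181 in old animals, and differed by -1.33 ± 0.71 (SE), or by -0.85 without F2.

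The small-subunit members that followed went in both directions. MRPS25 gave 259 and 218 in AD-like F1 and F2, against 45.9 to 190 (median 131) in old animals and 37.3 to 413 (median 170) in young adults. It was the only kept member with both AD-like animals above every old animal, which held for 1.39% of all kept probe sets, and the log2 difference was 0.92 ± 0.57 (SE; limma adjusted p = 0.972). MRPS14 gave 183 and 256 in AD-like animals, against 232 to 428 (median 305) in old animals, and differed by -0.48 ± 0.30 (SE), with F1 below every old animal, and by -0.25 without F1. MRPS22, a mitochondria-specific protein whose inherited defects affect heart and brain, differed by 0.55 ± 0.55 (SE), a value carried by F2 (167, against 64.0 in F1) and at -0.05 without it. The name of its only kept probe set marks it as open to cross-hybridization. A probe set of MRPS15 likewise differed by 0.45 ± 0.51 (SE), and by -0.20 without F2.

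Against young adults, the AD-like animals had a median difference of 0.08 over the members, beside 0.01 over all kept probe sets. In limma 1 member was higher in AD-like animals with p under 0.05 before adjustment (1.79%, against 1.13% of all kept probe sets) and 2 were lower (3.57%, against 3.21%), and 0 members passed after adjustment, against 0% of all kept probe sets. The linear-signal test left 0 members as well, against 0.00686% of all. Before adjustment it had 1 member higher (1.79%, against 2.19% of all) and 1 lower (1.79%, against 1.39%). The member that was higher was MRPL33, the counterpart of a small bacterial large-subunit protein. It gave 1290 and 1829 in AD-like F1 and F2, 507 to 1769 (median 851) in old animals and 418 to 1273 (median 740) in young adults. Every AD-like signal was above every young adult signal, but 4 old animals lay above F1, and the log2 difference from young adults was 1.05 ± 0.49 (SE; limma adjusted p = 1.00). The AD-like animals were also above all young adults for MRPL45 (110 and 177, a difference of 0.92 ± 0.46, SE) and MRPS17 (424 and 450, 0.56 ± 0.34, SE). These were 3 of 56 members (5.36%), against 2.62% of all kept probe sets. MRPL48 and MRPS18B were the 2 members below all young adults (3.57%, against 2.97% of all kept probe sets).

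As the AD-like animals are female, sex was compared between old and young adult animals alone. The median age difference of the members was 0.22 in males and 0.02 in females, beside 0.03 in males and 0.03 in females over all kept probe sets. In a limma model with sex, 3 members had an age difference that differed between males and females with p under 0.05 before adjustment (5.36%, against 4.85% of all kept probe sets), and 0 passed after adjustment, against 0% of all kept probe sets. MRPS18A, which sits in the large subunit, had an age difference of -0.73 in males and 1.07 in females (limma adjusted p = 0.968 for the difference between them). Its signals in males were 89.4 to 177 in old and 206 and 261 in young adult animals, whereas in females they were 206 to 311 in old and 25.3 to 247 in young adult animals. The low young adult females were F1 and F2, at 25.3 and 76.1. MRPS22 had -1.38 in males and 0.30 in females, and a probe set of MRPS15 had 1.08 in males and -0.18 in females. With 2 young adult males, each of these values rests on few animals, and the count became 5 without old M2. It was 0 among the 14 kept probe sets without _s_at or _x_at in their names. Old M1, old M2 and young adult M2 lacked poly-A control RNA, so this feature of the arrays is tied to sex. On the other arrays the age difference in males compares old M3 alone with young adult M1 alone.

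Genes of related function gave a frame for these values. Cytosolic ribosomal proteins, which serve the ribosomes of the cytoplasm, had a median log2 difference of 0.47 between old and young adult animals over 77 kept probe sets, of which 22 were higher (28.6%, against 3.49% of all kept probe sets) and 2 lower (2.6%, against 2.42%) with p under 0.05 before adjustment in limma. Subunits of complex I, the enzyme that receives several of the mitochondrially made proteins, had a median of 0.33 over 30 kept probe sets, with 9 higher (30%) and 1 lower (3.33%). The members stood at 0.08, with 3 higher (5.36%) and 2 lower (3.57%) of 56. Between AD-like and old animals the medians were -0.29 for the cytosolic ribosomal proteins (7 of 77 lower, 9.09%), -0.16 for complex I (1 of 30 lower, 3.33%) and -0.05 for the members (2 of 56 lower, 3.57%), where 3.62% of all kept probe sets were lower. No test of the difference between these lists was made. After adjustment, 0 probe sets of any of these lists passed. Among the cell type markers the smallest p between old and young adult animals belonged to SLC1A2, an astrocyte glutamate transporter, whose 4 kept probe sets differed by -1.21, -0.56, 0.24 and 0.42, while the 11 astrocyte probe sets had a median of 0.09. Between AD-like and old animals the same 4 differed by 0.80, 1.06, -0.62 and -1.39, with an astrocyte median of -0.01. For oligodendrocyte markers 9 of 11 were positive there (81.8%, against 48.1% of all kept probe sets), with a median of 0.13.

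**Figure D4:**
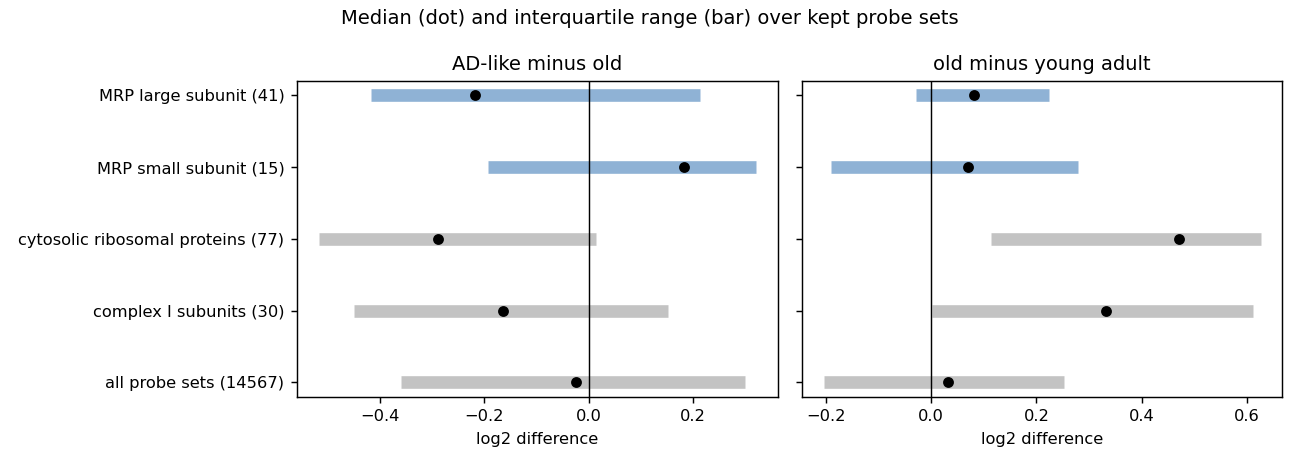
Median (dot) and interquartile range (bar) of the log2 differences over the kept probe sets of each list, whose number stands in brackets, between AD-like and old animals (left) and old and young adult animals (right). On the right, the medians of the MRP large subunit (0.08) and small subunit (0.07) lie near that of all probe sets (0.03), below those of cytosolic ribosomal proteins (0.47) and complex I subunits (0.33).

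Factors that work with the mitochondrial ribosome were measured by few probe sets. Translation factors had 5 kept probe sets of 25, assembly factors 13 of 50 and mitochondrial aminoacyl-tRNA synthetases 10 of 36. None reached p under 0.05 before adjustment in limma between old and young adult or between AD-like and old animals. Over all kept probe sets, 3.49% were higher and 2.42% lower in the first comparison, and 1.22% and 3.62% in the second. With so few probe sets, a count of 0 is not read as a result about these factors. TUFM, the elongation factor that brings aminoacyl-tRNA to the ribosome, averaged 395 ± 171 for AD-like animals (SD, n = 2), 626 ± 169 for old animals (SD, n = 10) and 597 ± 222 for young adults (SD, n = 6). TSFM, its recycling partner, averaged 240 ± 42.0 (SD, n = 2), 160 ± 136 (SD, n = 10) and 90.7 ± 53.9 (SD, n = 6) in the same groups. Of the 13 assembly probe sets, 5 had a positive difference between AD-like and old animals (38.5%, against 48.1% of all kept probe sets, median -0.17). Between old and young adult animals 11 were positive (84.6%, against 53.9% of all, median 0.17). These signs were not tested. DHX30, an RNA helicase needed for ribosome assembly, differed by -0.65 between AD-like and old animals on 1 kept probe set and by -0.35 on the other. Between old and young adult animals, the difference was -0.51 for NOA1, a GTPase linked to the small subunit, and 0.44 for ERAL1, a GTPase that binds the RNA of the small subunit. DAP3, a small-subunit GTP-binding protein with a name of its own, differed by -0.84 between old and young adult animals on 1 kept probe set and by 0.03 on the other.

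Below the limit, 86 members had low signals in nearly all animals. MRPL3, the counterpart of a core protein of the bacterial large subunit, gave 45.6 and 79.0 in AD-like animals, 22.5 to 89.4 (median 70.7) in old animals and 6.92 to 58.4 (median 15.95) in young adults. All 10 old animals lay above the young adult median, and in a fit without the limit the log2 difference between old and young adult animals was 0.97 (limma adjusted p = 0.888). In that fit, over all 142 members and with p under 0.05 before adjustment, 4 members were higher in old animals than in young adults (2.82%, against 1.83% of all 54613 probe sets) and 8 were lower (5.63%, against 3.52%). Compared with old animals, AD-like animals had 6 members higher (4.23%, against 3.93% of all) and 4 lower (2.82%, against 1.81%). Compared with young adults, they had 6 members higher (4.23%, against 2.88% of all) and 2 lower (1.41%, against 2.04%). After adjustment 0 members passed in each, against 0% of all probe sets.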

How the data were processed

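Temporal cortex RNA of 18 animals was hybridized to human arrays, and the authors deposited linear intensity values, made with GCOS 1.2 and scaled to a trimmed mean of 100 on each array. The authors' detection calls were not used here. Of 54675 probe sets, 62 controls were left out. Symbols came from the platform's annotation, in which 12435 of the 14567 kept probe sets have 1 symbol, 576 several and 1556 none. Of the 77 MRP symbols, 74 occur in the lemur annotation given.

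Probe sets whose third-highest signal was at least 150 were kept. Signals were transformed to log2(signal + 16), so differences of dim probe sets are understated. All arrays entered 1 limma model of 3 groups (limma 3.58.1, R 4.3.3), which assumes that the 2 AD-like animals vary like the others. The age and sex model used 16 arrays. Benjamini-Hochberg adjustment ran over all kept probe sets, with a threshold of 0.05. The number of animals limits the precision. No pair of arrays correlated above 0.778 (Spearman). The code was tested on simulated signals.

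Named members have the smallest limma p in each subunit (5 per comparison, 3 for AD-like against young adult animals) or the highest mean signals (3), with MRPL3 and MRPL39, which the study's supplement lists, the members of mixed probe sets, and the leading genes of related lists. MRPS18A was named for its p in the sex model. Members and lists were chosen with earlier results of these data known. Alternatives covered the offset, filter, normalization, weights, sex, females only, label numbers as a block, GAPDH ratio, poly-A control RNA, probe set type, the methods' t-test and each animal left out. Figures were drawn with matplotlib 3.10.9.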

Additional observations from a re-analysis of the deposited data

Results flagged for a closer look

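Within groups of 6 or 10 animals, 50 sets of values (named members and member means) were examined for a single animal far from the rest by Dixon's ratio, and 3 stood out, where chance gives about 1 in 20. MRPL24 had a signal of 896 in young adult M2, while the nearest young adult had 1493. A probe set of MRPS15 had 80.0 in young adult M1, with the nearest young adult at 268. The mean log2 level of the small-subunit members was 7.15 in young adult M1, against 7.54 in the nearest young adult. Array M2 lacked poly-A control RNA, and M1 had the highest median signal of all arrays, 54.4; the part of either in these values was not tested.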

How the results depend on the processing

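After adjustment 0 members passed between old and young adult animals in 35 settings; between AD-like and old animals MRPL48 alone passed in 3 of 35, and between AD-like and young adult animals in 1 of 35. Its limma adjusted p between AD-like and old animals was 0.0207 without old M1 (log2 difference -2.29), 0.0231 in females only (-2.26) and 0.0305 on the arrays with poly-A control RNA (-2.76), which hold 1 AD-like animal, and between AD-like and young adult animals it was 0.0290 on those arrays (-2.88). MRPL48 was kept through old and young adult animals alone, so these adjusted p values are given as a description. Of the 26 named differences, picked for a small p in these same arrays, 3 changed sign in some setting and 23 in none. Because of that choice, a kept sign is no separate support for a difference. Those that changed were MRPL18 (0.11 without AD-like F1 and -2.41 without F2), MRPS22 (-0.19 on the arrays with poly-A control RNA, 1.14 without AD-like F1 and -0.051 without F2) and MRPS15 (1.10 without AD-like F1 and -0.20 without F2). Members at an unadjusted p under 0.05 between old and young adult animals were 5, but 12 without the filter, 2 in females, 3 on the arrays with poly-A control RNA, 2 among the 14 probe sets specific by name, and 2 to 7 when an animal was left out. Between AD-like and old animals they were 2, but 10 without the filter, 4 after quantile normalization, 5 with sex as a covariate, 4 in females, 6 on the arrays with poly-A control RNA, 1 among the specific probe sets, and 2 to 6 when an animal was left out. Between AD-like and young adult animals they were 3, but 8 without the filter, 5 with sex, 6 in females, and 2 to 4 when an animal was left out. For the age difference between males and females they were 3, but 0 among the specific probe sets and 5 without old M2. On the arrays with poly-A control RNA, old M3 and young adult M1 are the only males, so no count is given there. The median between AD-like and old animals, -0.05, was -0.19 with 1 probe set per gene, -0.21 among the specific probe sets, and -0.12 to 0.13 when an animal was left out. That between AD-like and young adult animals, 0.08, was -0.22 among the specific probe sets and 0.01 to 0.17 when an animal was left out. That between old and young adult animals stayed between 0.02 and 0.14. The filter and probe set type change how many members are tested, and other causes were not tested. Apart from the fit without the filter and the linear-signal test, the share of all probe sets called was not counted in these settings. A count of members that moved is therefore not read as a result about the members.

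The labels do not say whether a label number shared between groups marks a pair. In 7 of 10 pairs of arrays with the same number the deviations correlated above 0.1, with r between -0.27 and 0.47. Arrays with different numbers were not compared, so these values do not settle whether animals were paired. With the label number as a replicate block, 5, 7 and 7 members reached an unadjusted p under 0.05 in the 3 comparisons, and 0 after adjustment. The median SE of a member's log2 difference was 0.43 between AD-like and old animals and 0.29 between old and young adult animals, so that differences of that size were not detectable with these numbers of animals.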
